A study of Mus musculus with 8 samples.

Results

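Brain-derived neurotrophic factor and neurotrophin 3, with the receptors that receive them, were examined in the auditory nerve of young mice. The 8 genes were taken by symbol from a table of 15035 genes: the ligands Bdnf and Ntf3, the receptor kinases Ntrk2, Ntrk3 and Ret, and the coreceptors Ngfr, Sort1 and Gfra1. All 8 were in the table and all 8 passed the filter on low values, among 14870 genes that did. Bulk RNA sequencing was done on nerves dissected at postnatal day 21, with both cochleas of a mouse in 1 library. There were 4 libraries of wild-type mice (replicates 1 to 4) and 4, numbered 5 to 8, of Mef2c heterozygotes, where Mef2c is the gene of a MADS-box transcription factor. The labels give neither the strain, the sex nor the nature of the Mef2c allele.

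Neurotrophins are secreted proteins that are made as larger precursors and cut to a mature form. The mature form acts through Trk receptor kinases, TrkB (Ntrk2) for brain-derived neurotrophic factor and TrkC (Ntrk3) for neurotrophin 3. The precursor binds p75 (Ngfr) together with sortilin (Sort1). In the cochlea, both ligands are made in the sensory epithelium and keep the spiral ganglion neurons and their endings alive, and p75 is also carried by Schwann and satellite cells. Ret is the kinase of the GDNF family of ligands, which it receives through GPI-anchored coreceptors such as Gfra1.

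Bdnf is known for its many start sites, each with its own promoter and a shared coding exon. On mm10, the build in the submitters' processing notes, Bdnf lies on the plus strand of chromosome 2 from 109674700 to 109727007, with 11 transcripts in GENCODE M21. RefSeq (GRCm38.p6) gave start windows for 5 of the 8 genes, and 7 of these 12 windows belong to Bdnf. The values per gene add up the transcripts from all of them, so the use of single promoters was not measured. The 250 bases before each start were searched on both strands for TGACG (the core of the cyclic AMP response element, CRE), the full CRE TGACGTCA, the CRE-like TCACGTCA (which holds that core), the E-boxes CACGTG and CATATG, and the MEF2 consensus. Of the Bdnf windows, 2 held any match, and they are shown because Bdnf gave the largest difference of the 8 genes and its promoters are the textbook case of control by neuronal activity. Capitals mark the matches.
Bdnf window 3, plus strand, chr2:109692186-109692435: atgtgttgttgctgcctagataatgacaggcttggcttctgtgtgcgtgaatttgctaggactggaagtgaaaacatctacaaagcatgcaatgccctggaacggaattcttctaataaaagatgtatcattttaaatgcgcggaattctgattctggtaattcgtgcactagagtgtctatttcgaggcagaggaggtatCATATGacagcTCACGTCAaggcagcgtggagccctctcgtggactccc
Bdnf window 4, plus strand, chr2:109692777-109693026: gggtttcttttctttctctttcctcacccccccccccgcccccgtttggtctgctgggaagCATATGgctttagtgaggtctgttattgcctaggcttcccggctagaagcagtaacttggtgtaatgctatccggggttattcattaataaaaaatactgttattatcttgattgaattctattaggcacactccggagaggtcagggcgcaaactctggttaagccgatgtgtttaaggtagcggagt
In window 3 the TCACGTCA match began at -38 and the CATATG match at -49 from the start, and in window 4 the CATATG match began at -189. TCACGTCA was found in 0.35% of 32851 windows of the same length across all genes, TGACG in 17.8%, CATATG in 3.46% and the MEF2 consensus in 2.92%. The motifs were known sites set before the search, TCACGTCA under the name CaRE3. These shares thus give only how common the letters are, and no match was tested. None of the 7 Bdnf windows held the MEF2 consensus, which says only that these letters are not in these windows.

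The libraries were checked before the members were read. By the step between low values, they held about 13363056 to 21505981 reads each. All 15 neuron markers and all 10 markers of myelinating Schwann cells were in the table, with summed levels of 214489 to 287838 and 103945 to 145692 normalized counts, and no marker of either list was at 0 in any library. Mef2c itself was higher in all 4 libraries labelled heterozygote (583.3 to 735.1 normalized counts) than in any wild-type library (402.2 to 508.7), against the label, with a log2 fold change of 0.53 (SE 0.13). Its limma-trend adjusted p was 0.186 and its two-sided exact permutation p 0.0286, the smallest that 4 libraries against 4 can give, and the authors' deposited table gives an FDR of 0.0162 for Mef2c. Values per gene do not show a deleted exon, so all directions below are between libraries as labelled. Of all libraries, wild-type library 1 had the highest marker sums of astrocytes (40538), fibroblasts (52615) and macrophages (4822), among others. It had the lowest sums of neurons (214489) and hair cells (2914). In a bulk sample, fewer cells of a type and less RNA per cell cannot be told apart. Libraries are separate mice, and nothing pairs them across genotypes.

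None of the 8 genes passed an adjusted p of 0.05 with limma-trend, a linear model fitted to log2(value + 1) of all 14870 genes with Benjamini-Hochberg adjustment. The background for that call was 0.0807% of all genes, or 12 genes. That count rests on single libraries: it was 221 without wild-type library 3, 7 without library 5, 6 without library 7, and 0 when wild-type library 2, wild-type library 4 or library 8 was left out. At an unadjusted p under 0.05 there was 1 of the 8, Bdnf, against 14.1% of all genes. Limma-voom also called 0 of the 8, and the lowest FDR among them in the authors' deposited table was 0.0519, for Bdnf, where 1.61% of the genes in the authors' deposited table had an FDR under 0.05. In none of the 8 were the genotypes free of overlap, against 7.26% of all genes. The median log2 fold change of the 8 was -0.01 and that of all genes tested was 0.02, with 4 members above 0 and 4 below.

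**Figure D1:**
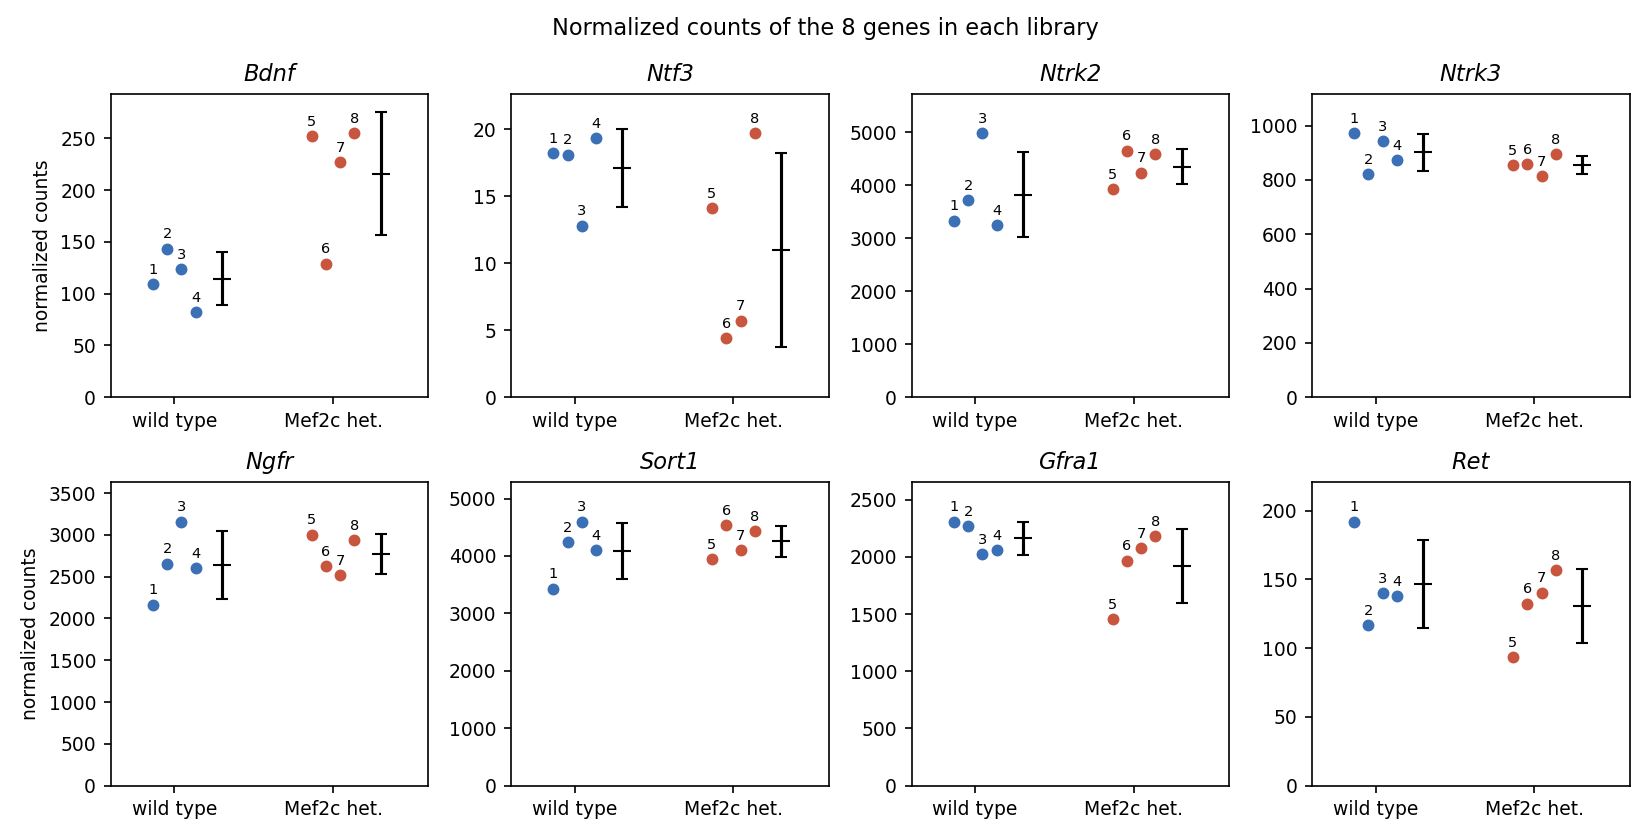
Each panel plots 1 gene, with normalized counts on a y axis that starts at 0 and the library's replicate number beside each point. Blue points are wild type, red points are libraries labelled heterozygote, and the black bars are the mean ± SD of 4 libraries. Bdnf lies at 227.1 to 255 in libraries 5, 7 and 8 and at 129 in library 6, within the wild-type range.

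The ligand Bdnf had 109, 143.5, 123.7 and 82.1 normalized counts in wild-type libraries 1 to 4. It had 252, 129, 227.1 and 255 in the libraries labelled heterozygote, 5 to 8. In 3 of those 4 it was above every wild-type library, while library 6 lay below wild-type library 2. Wild type averaged 115 ± 25.9 and the other genotype 216 ± 59.2 (SD, n = 4 each). On the log2 scale this is a difference of 0.89 (SE 0.26), with a 95% interval of 0.31 to 1.46, or 1.85-fold. Its unadjusted p ranked 340 among 14870 genes, at 0.00582 with limma-trend, and the adjusted p was 0.255. The two-sided exact permutation p over the 4 and 4 libraries was 0.0571, where the smallest possible is 0.0286. In the authors' deposited table the ratio was 1.87. Across 19 alternatives the limma-trend or limma-voom adjusted p of Bdnf stayed between 0.0974 and 0.616 and its log2 fold change between 0.74 and 1.11. The upper value is the one without heterozygote-labelled library 6.

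An annotated antisense gene, Gm45346, overlaps Bdnf. Antisense or other genes also overlap Ntrk2, Ntrk3, Sort1 and Gfra1 in the annotation. None of them is among the genes analysed here, and whether the authors counted by strand is not given in the sources used here, so reads of these genes cannot be told apart in the values of the 5 members.

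Markers of hair cells and of supporting and lateral wall cells were read beside Bdnf, since the cochlear epithelium borders the dissected nerve. The 8 hair cell markers summed to 2914 to 3924 normalized counts in wild type. They summed to 4870, 3110, 5265 and 6257 in libraries 5 to 8. The library labelled heterozygote with the lowest Bdnf, number 6, thus also had the lowest hair cell sum of its group, within the wild-type range. Of these 8 markers 2 had an unadjusted p under 0.05, both higher: Gfi1 and Otof, for otoferlin of the hair cell synapse. Over all genes tested, 6.72% were at that p and higher and 7.34% lower. Gfi1, a transcription factor, had 246.6, 96.2, 304.3 and 101.5 normalized counts in wild-type libraries 1 to 4 and 333.7 to 632.9 in libraries 5 to 8. In wild type it was higher in libraries 1 and 3, as was the sum of neutrophil markers, while Otof was lowest in library 1. Whether Gfi1 stands for hair cells here was not tested. Otof had 1254 to 1690 normalized counts in wild type and 2141, 1477, 2431 and 3018 in libraries 5 to 8, lowest in library 6. It had the highest level of the 8 and so weighs most in their sum. The rest of the 8 were also lowest in library 6 within that group. Slc17a8 went the other way between genotypes, with a log2 fold change of -0.20, and that of Pou4f3 was 0.18. The 9 markers of supporting and lateral wall cells that were in the table summed to 126001 to 156681 in wild type and to 163878, 132179, 170039 and 169304 in libraries 5 to 8. Tecta, for the tectorial membrane protein alpha-tectorin, had 34.7 to 232.8 normalized counts in wild type and 311.9 to 851.9 in libraries 5 to 8 (limma-trend adjusted p 0.0632). Otog, for otogelin of the acellular membranes, had a log2 fold change of 1.07. These were the 2 of the 9 that were higher at an unadjusted p under 0.05, and 1 was lower, Emilin2 (-1.01). Coch made up most of the summed level of the 9, with 100953 to 133105 normalized counts in wild type and 109735 in library 6. Within libraries 5 to 8, library 6 was lowest in Coch, Otog, Otogl, Tecta, Epyc and Emilin2. It was highest in Gjb2 (12736) and Kcnq1 (725.8), and not lowest in Slc26a4. No marker of the 2 lists was at 0 in any library, and the markers named were picked after their values were seen. Of the other marker lists, 4 of 9 osteoblast and osteocyte genes and 4 of 5 neutrophil genes were higher at an unadjusted p under 0.05. The share over all genes was 6.72%. Their sums were 3666 to 13507 and 117.2 to 2363 normalized counts in wild type, and 7824 to 17004 and 668.3 to 6072 in libraries 5 to 8. The neutrophil maximum in wild type is mostly Ltf in library 1 (2176). In the other 4 neutrophil genes the genotypes did not overlap, against 7.26% of all genes in either direction. Library 6 was also the lowest of its group in the sums of neutrophil (668.3), myelinating Schwann cell (103945) and pericyte and smooth muscle markers (5673). Apart from these lists and the 2 above, it was not the lowest in any marker list. The part of any of these cells in the Bdnf difference was not tested.

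**Figure D2:**
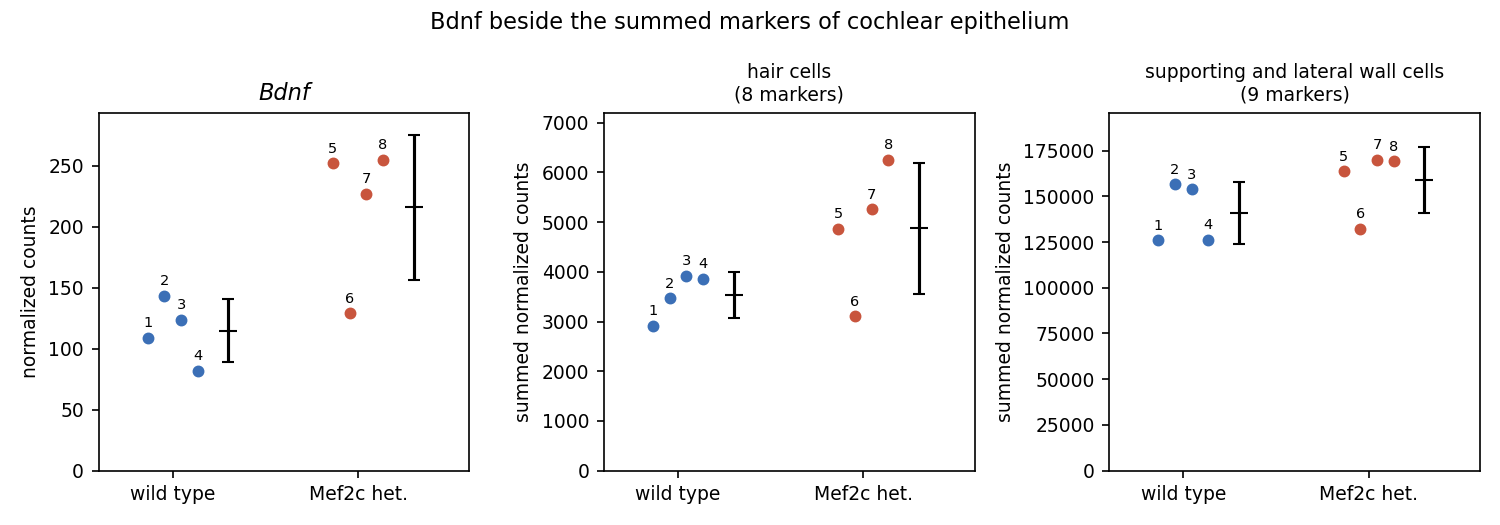
The left panel plots Bdnf in normalized counts, and the middle and right panels plot the summed normalized counts of 8 hair cell markers and of 9 supporting and lateral wall cell markers. Points are libraries with their replicate numbers, and black bars are mean ± SD of 4 libraries. Library 6 is the lowest of the libraries labelled heterozygote in all 3 panels. The sum in the right panel is mostly Coch, and Otof is the largest part of the sum in the middle panel.

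The other ligand, Ntf3, was near the lower end of what the table holds. It had 18.2, 18.1, 12.8 and 19.3 normalized counts in wild-type libraries 1 to 4 and 14.1, 4.4, 5.7 and 19.7 in libraries 5 to 8. These stand for about 13.96 to 22.95 reads in wild type and 5.05 to 21.01 in libraries 5 to 8, and 3 reads are worth 2.37 to 3.89 normalized counts. Libraries 6 and 7 were below every wild-type library and library 8 was above them all. The means were 17.1 ± 2.92 and 10.98 ± 7.23 (SD, n = 4 each). Its log2 fold change of -0.80 had a standard error of 0.58 and a 95% interval of -2.06 to 0.47, so both a large fall and a modest rise lie inside it (limma-trend adjusted p 0.536). The value was -0.43 with a pseudocount of 10 and -0.48 without library 6. Ntf3 lies on the minus strand of chromosome 6, from 126101412 to 126166910.

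Of the Trk receptors, Ntrk2 took the more reads. It had 3333, 3713, 4985 and 3248 normalized counts in wild-type libraries 1 to 4 and 3929, 4656, 4242 and 4589 in libraries 5 to 8. The libraries labelled heterozygote lay close together, above 3 of the wild-type libraries and below wild-type library 3. The genotypes differed by a log2 fold change of 0.21 (SE 0.13), with a 95% interval of -0.08 to 0.49 and a limma-trend adjusted p of 0.479. Without wild-type library 3 it was 0.34, with a limma-trend adjusted p of 0.0773, the lowest of its alternatives, and after correction for transcript length it was -0.02. Ntrk2 lies on the plus strand of chromosome 13, from 58806569 to 59133970. The gene makes a full-length receptor and truncated forms without the kinase, which glia carry, and its value per gene adds these up.

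Ntrk3 was the steadiest of the 8 genes, with a coefficient of variation of 6.32% over the 8 libraries. It had 972, 820.9, 941.4 and 872.1 normalized counts in wild-type libraries 1 to 4 and 854.9, 857.4, 813.3 and 895.4 in libraries 5 to 8. Library 7 was just below the wild-type range and the other 3 were inside it. The log2 fold change was -0.07 (SE 0.10), with a 95% interval of -0.29 to 0.14 (limma-trend adjusted p 0.743). Correction for transcript length moved the value to -0.43 (limma-trend adjusted p 0.31). That correction used the longest annotated transcript, which for Ntrk3 has 19703 bases, against a median of 2726 for its protein-coding transcripts. The value with the median length was not tested. Ntrk3 lies on the minus strand of chromosome 7, from 78175959 to 78738012.

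The coreceptors of the neurotrophin precursors differed between genotypes by less than the spread between libraries. Ngfr, for p75, had 2163, 2654, 3159 and 2599 normalized counts in wild-type libraries 1 to 4 and 3002, 2624, 2514 and 2938 in libraries 5 to 8. All 4 libraries labelled heterozygote lay inside the wild-type range. Its log2 fold change was 0.08 (SE 0.12), with a 95% interval of -0.18 to 0.33 and a limma-trend adjusted p of 0.782. Sort1, for sortilin, had 3430, 4234, 4598 and 4098 in wild-type libraries 1 to 4 and 3944, 4537, 4105 and 4427 in libraries 5 to 8, again all inside the wild-type range. Its log2 fold change was 0.06 (SE 0.10), with a 95% interval of -0.16 to 0.29 and a limma-trend adjusted p of 0.797. Wild-type library 1 was the lowest in both genes. Without it the log2 fold changes were -0.02 for each. Ngfr lies on the minus strand of chromosome 11, from 95568818 to 95587735, and Sort1 on the plus strand of chromosome 3, from 108284082 to 108361511.

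The GDNF receptor pair came next. Gfra1, the coreceptor, had 2309, 2266, 2022 and 2058 normalized counts in wild-type libraries 1 to 4 and 1456, 1966, 2075 and 2179 in libraries 5 to 8. Library 5 was far below the rest, library 6 was just below the wild-type range, and the other 2 were inside it. Its log2 fold change was -0.19 (SE 0.12), with a 95% interval of -0.46 to 0.08 and a limma-trend adjusted p of 0.498, and without library 5 it was -0.06. Library 5 also had the lowest sums of astrocyte markers (19299 normalized counts, against 28305 to 40538 in wild type) and of oligodendrocyte markers (28642, against 49279 to 52913 in wild type). The other libraries labelled heterozygote had astrocyte sums of 24180 to 30763 and oligodendrocyte sums of 30414 to 34044, the latter all below wild type too. Of the 8 astrocyte markers 4 had an unadjusted p under 0.05 and of the 12 oligodendrocyte markers 10 did, all lower in the libraries labelled heterozygote. Of these, 3 oligodendrocyte markers and 0 astrocyte markers passed an adjusted limma-trend p of 0.05, and no marker of either list was at 0 in any library. Of all genes tested, 7.34% were lower at an unadjusted p under 0.05, and 0.0807% passed the adjusted p in either direction. The part of these cells in the Gfra1 values was not tested.

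Ret, the kinase, had 192.1, 116.7, 140.2 and 137.7 normalized counts in wild-type libraries 1 to 4 and 93.4, 132.4, 140.4 and 156.6 in libraries 5 to 8. Wild-type library 1 was the highest and library 5 the lowest, and the other 6 lay between 116.7 and 156.6. Ret had a log2 fold change of -0.17 (SE 0.23), with a 95% interval of -0.68 to 0.35 and a limma-trend adjusted p of 0.759. Without the 2 libraries low in Xist, which are these same 2, it was 0.12. Gfra1 lies on the minus strand of chromosome 19, from 58235604 to 58455909, and Ret on the minus strand of chromosome 6, from 118151745 to 118197718.

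**Figure D3:**
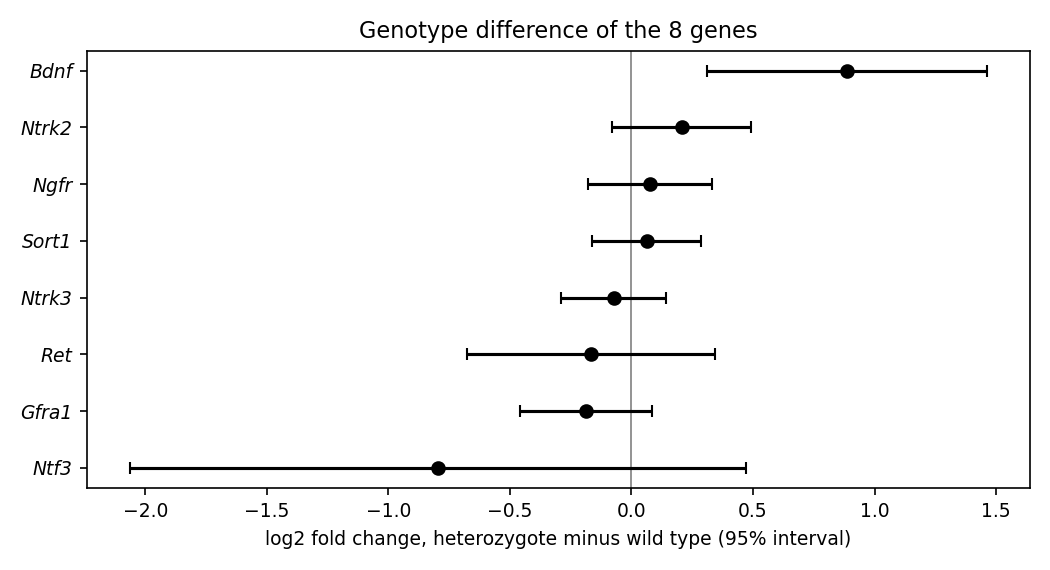
Points are limma-trend log2 fold changes on the log2(value + 1) scale, heterozygote minus wild type, and bars are 95% intervals without correction for the number of genes. The interval of Bdnf, 0.31 to 1.46, is the only 1 of the 8 that does not reach 0, and that of Ntf3 is the widest.

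Differences of log2(value + 1) within a library depend on its size factor only through the pseudocount, and 5 of them were compared between genotypes, with p-values from two-sided exact permutation tests adjusted over the 5. The log2 level of Bdnf minus that of its receptor Ntrk2 was -5.05 ± 0.31 in wild type and -4.38 ± 0.54 in libraries 5 to 8 (SD, n = 4 each). The ligand was thus closer to its receptor by 0.68 on average, with library 6 at the wild-type level (exact permutation p 0.0857, adjusted 0.333). Ntf3 minus Ntrk3 differed by -0.72 (exact permutation p 0.2, adjusted 0.333), and by -0.35 with a pseudocount of 10 and -0.41 without library 6. Ntrk3 minus Ntrk2 differed by -0.28 (exact permutation p 0.143, adjusted 0.333), from -2.06 ± 0.28 to -2.34 ± 0.10. Ngfr minus Sort1 differed by 0.01 and Gfra1 minus Ret by -0.02, each with an adjusted exact permutation p of 0.914. None of the 5 passed 0.05.

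Compared per length, the members spanned a wide range of levels. With the longest annotated transcript as the length, the wild-type levels in normalized counts per kilobase were 767 ± 118 for Ngfr, 598 ± 71.4 for Sort1, 466 ± 31.2 for Gfra1 and 437 ± 91.8 for Ntrk2 (SD, n = 4). Ntrk3 followed at 45.8 ± 3.46, Ret at 26.9 ± 5.88, Bdnf at 26.9 ± 6.06 and Ntf3 at 11.5 ± 1.97 normalized counts per kilobase. In that order the neighbours Ngfr and Sort1, Gfra1 and Ntrk2, and Ret and Bdnf were within the sum of their SDs of each other. The libraries labelled heterozygote had the same order except that Ntrk2 (498) passed Gfra1 (413), and Bdnf (50.6) passed both Ret (24.0) and Ntrk3 (43.4). The order depends on the length used. With the median length of the protein-coding transcripts, a choice added after seeing the data, Gfra1 (1558 normalized counts per kilobase) and Ntrk2 (1253) came first in wild type and Ntrk3 rose to 331.

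Among the 28 pairs of members, 0 correlated over the 8 libraries at an adjusted permutation p under 0.05. The smallest exact permutation p was that of Ntrk2 and Sort1 (Pearson r = 0.78, exact permutation p 0.0166, adjusted 0.423, and Spearman rho = 0.83, exact permutation p 0.0154, adjusted 0.431). Without the 2 libraries farthest from the median of Ntrk2, wild-type libraries 1 and 4, r was 0.80. Gfra1 and Ret had r = 0.78 (exact permutation p 0.0386, adjusted 0.423) and rho = 0.62 (exact permutation p 0.115, adjusted 0.688). That relation rested on wild-type library 1 and heterozygote-labelled library 5, without which r was -0.25. Ngfr and Sort1 had r = 0.72 (exact permutation p 0.0453, adjusted 0.423) and rho = 0.55 (exact permutation p 0.171, adjusted 0.688), and r was -0.11 without wild-type libraries 1 and 3.

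For each member the 3 genes most like it were found by Pearson r of log2(value + 1) over the 8 libraries, among 12208 genes with a mean of at least 100 normalized counts. These are the highest of many values from few libraries and describe the pattern only. For Bdnf they were Espn (r = 0.97), Dnajb1 (0.96) and Ankrd34a (0.96). Espn, for the stereocilia protein espin, had 205, 237.4, 255.7 and 198.1 normalized counts in wild-type libraries 1 to 4 and 430.1, 272.7, 402.4 and 457.6 in libraries 5 to 8, so it too was lowest in library 6 among the libraries labelled heterozygote. Its limma-trend adjusted p was 0.186. For Ngfr they were Elavl4, for a neuronal RNA-binding protein (r = 0.99), Ppp2r2c (0.98) and Ugcg (0.98), and all 3 were lowest in wild-type library 1 and highest in wild-type library 3, as Ngfr was. For Sort1 they were Pabpc1l2b, Wasf3 and Atp8a1 (r of 0.977 to 0.997), and for Ntrk2 they were Vkorc1l1, Rbms3 and Dock10 (0.961 to 0.976).

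The genes most like Gfra1 were Psd2 (r = 0.96), Tgfa (0.95) and Slc6a11, for a GABA transporter of astrocytes (0.95). Slc6a11 had 187.2 to 412.7 normalized counts in wild type and 32.6 in library 5. For Ret they were Grb2, Cir1 and Snrnp48 (r of 0.959 to 0.972). Grb2, the adaptor that links receptor kinases to Ras, varied little, from 1724 in library 5 to 1925 in wild-type library 1. Ntrk3 was most like Trim13, Mrpl36 and Aldh5a1 (0.930 to 0.969), and Ntf3 most like Ogg1, Prkd1 and Sppl2b (0.910 to 0.943).

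The rest of the pathway was read from 9 lists of 142 genes, of which 136 were tested. With limma-trend 0 of the 136 passed an adjusted p of 0.05, and 17 had an unadjusted p under 0.05 (12.5%, against 14.1% of all genes), 14 with a higher mean in libraries 5 to 8 and 3 with a lower one. Over all genes tested, 6.72% were at that p and higher and 7.34% lower. Limma-voom called 0 too. The genotypes did not overlap in 7 of the 136 (5.15%, against 7.26% of all genes). The median log2 fold change of the 136 was 0.10.

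Of 6 other ligands listed, 4 were tested, and 0 had an unadjusted p under 0.05 with limma-trend. Ntf5, for neurotrophin 4, which also acts on TrkB, had 14.5 to 26.6 normalized counts in wild type and 4.7 to 27.0 in libraries 5 to 8. Gdnf had 15.7 to 83.1 and 48.9 to 76.3, and Nrtn, for neurturin, had 308 to 678.7 and 256 to 411.3. These 3 were picked after their values were seen, and their genotypes overlapped.

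Of 13 other receptors and coreceptors, 11 were tested and 1 had an unadjusted p under 0.05. Sorcs3, a sortilin relative of neurons, had 267.3, 201.9, 249.3 and 141.3 normalized counts in wild-type libraries 1 to 4 and 347.6, 450.5, 377 and 346 in libraries 5 to 8. Every library labelled heterozygote was above every wild-type library. Sorcs3 had a log2 fold change of 0.85 (SE 0.21), with an unadjusted limma-trend p of 0.00139 and an adjusted p of 0.197. With sample quality weights, which give libraries unequal weight by their residual spread, the adjusted p was 0.0316, the only such call for a pathway gene in any alternative.

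The 10 genes that cut neurotrophin precursors or bear on that cutting gave 3 with an unadjusted p under 0.05, all higher. Pcsk5, a proprotein convertase, had a log2 fold change of 0.43 (SE 0.16, limma-trend adjusted p 0.296), with 343.9 to 552 normalized counts in wild type and 506.2 to 717.3 in libraries 5 to 8. Furin, the convertase best known for this cleavage, had 0.26 (limma-trend adjusted p 0.319). Furin was picked after its values were seen.

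Of the adaptors that bind active Trk and Ret, 25 were tested, and the 3 at an unadjusted p under 0.05 were all higher. Rapgef1, which couples Crk adaptors to Rap1, had a log2 fold change of 0.36 (limma-trend adjusted p 0.268). Of 18 tested genes of p75 signalling, 1 had an unadjusted p under 0.05 with limma-trend and was higher. The 26 genes of the Ras, MAP kinase and PI3 kinase relay gave 2 higher and 2 lower. Foxo3 had a log2 fold change of 0.26 and Hras of -0.46, with limma-trend adjusted p of 0.341 and 0.254.

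Among 19 genes that activity or Trk signalling can induce, 1 had an unadjusted p under 0.05. Nr4a1, an immediate early nuclear receptor, had 188.2, 307.5, 257.6 and 273 normalized counts in wild-type libraries 1 to 4 and 420.4, 326.7, 564.5 and 585.1 in libraries 5 to 8. The genotypes did not overlap, and library 6 was the lowest of its group, as it was for Bdnf. Nr4a1 had a log2 fold change of 0.87 (SE 0.21, limma-trend adjusted p 0.21). Fos had 53.2 to 78.1 normalized counts in wild type and 59.1 to 76.7 in libraries 5 to 8, inside the wild-type range. Arc had 126.5 to 220.6 and 114.1 to 158.6, with a log2 fold change of -0.34 (limma-trend adjusted p 0.482). Fos and Arc were picked after their values were seen. Of the 19 genes, 12 had a log2 fold change above 0 and 7 below, with a median of 0.14. The median over all genes tested was 0.02.

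The 13 genes of Trk trafficking had the highest list median, 0.25, with 2 at an unadjusted p under 0.05, both higher. Htt, for huntingtin, which takes part in the transport of vesicles holding brain-derived neurotrophic factor, had a log2 fold change of 0.39 (limma-trend adjusted p 0.276). Of 10 tested genes of the ciliary neurotrophic factor and leukaemia inhibitory factor family, Lifr had 0.28 and Clcf1, for a ligand of the family, had -0.69, with limma-trend adjusted p of 0.31 and 0.312. Clcf1 had 59.6 to 77.3 normalized counts in wild type and 33.9 to 48.8 in libraries 5 to 8, without overlap.

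**Figure D4:**
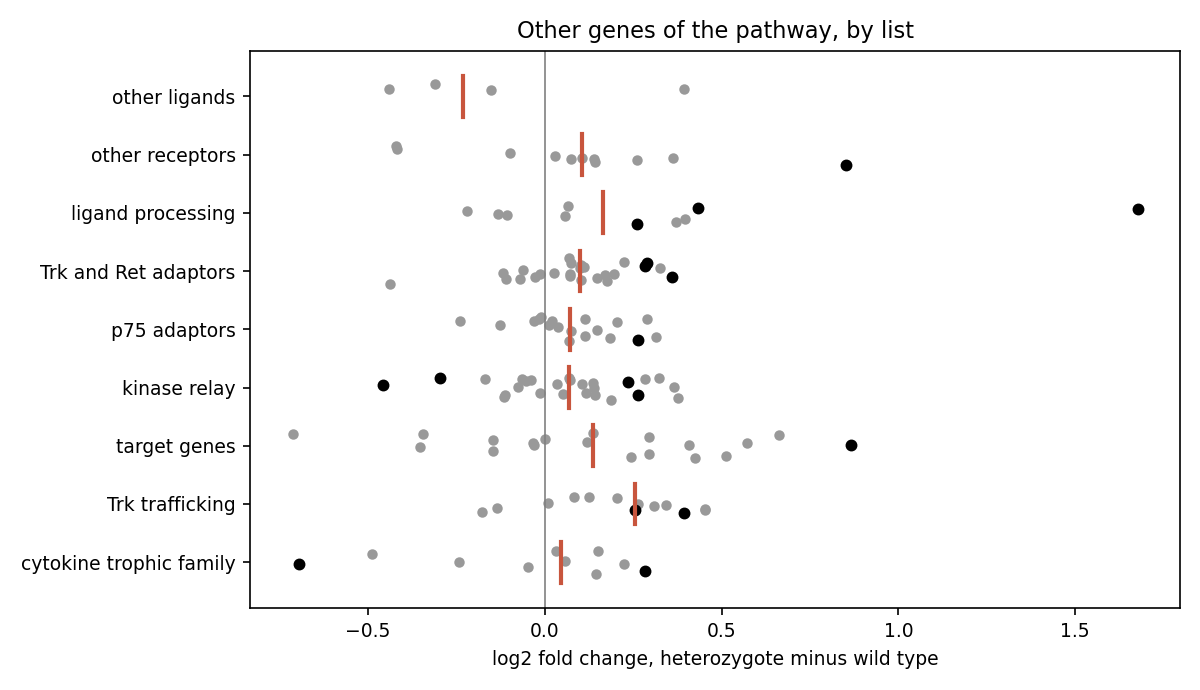
Each point is 1 tested gene of a pathway list, placed by its limma-trend log2 fold change (heterozygote minus wild type, log2(value + 1) scale). Black points have an unadjusted p under 0.05, grey points do not, and red bars are list medians, which run from -0.23 for the other ligands to 0.25 for Trk trafficking.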

How the data were processed

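The authors' deposited table has a signal column for each library. Judged by its values, it holds read counts per gene over a library's size factor, given to 1 decimal. The submitters' processing notes name mm10, STAR, Partek and DESeq2, with no role or setting. The counting method and the use of strand are not given in the sources used here. Per the file headers, the authors' deposited columns also hold a p-value, an FDR, a ratio, its log2 and a signed fold score (not used). Per the labels' protocols, RNA input was 50 ng into a directional poly(A) kit, and RNA with an integrity number under 7 was left out. Low values were whole multiples of 1 read (within 0.05) for 86.3% to 89.6% of values under 100, too few for a count model.

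Genes that reached 10 normalized counts in 4 or more libraries were fitted with limma-trend on log2(value + 1) in all 8 libraries, with Benjamini-Hochberg adjustment over 14870 genes, so fold changes of low genes are understated. Intervals are 95% and use the moderated standard error. Single values were compared by exact permutation. The fit was tested on simulated data. Lengths and positions are from GENCODE M21 (GRCm38, the same assembly as mm10), matched by symbol for 97.63% of tested genes. The length correction used the longest annotated transcript of each gene. Alternatives were other filters, pseudocounts of 0.1 and 10, quantile and upper-quartile scaling, limma-voom, sample quality weights, low Xist (under 100 normalized counts) as a covariate or left out, a loess correction for transcript length, and each library left out. The genes named are Mef2c, the members, the 3 genes most like each member, and in each list any past 0.05, or else the largest difference in each direction with an unadjusted p under 0.05 and a mean of at least 50; others are marked in the text. Some genes of the lists are counted but not reported by name here. The members and lists were chosen with earlier results of these data known. R 4.3.3, limma 3.58.1, Python 3.11.15, numpy 2.4.6, pandas 2.3.3, scipy 1.17.1 and matplotlib 3.10.9 were used.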

Additional observations from a re-analysis of the deposited data

Results flagged for a closer look

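Each of 28 groups of 4 libraries was checked for a lone distant value. 1 was found, where about 1.4 would arise by chance. It was the log2 difference of Ngfr and Sort1 in wild type, where library 3 was highest at -0.54 against -0.67 to -0.66 in the others, a gap of 0.872 of the group's range. The group spans little, and library 3 had the highest level of both genes among the wild-type libraries.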

How the results depend on the processing

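None of the 8 members passed an adjusted p of 0.05 in any alternative, and Bdnf, Ntf3, Ntrk3 and Gfra1 kept their direction in all of theirs. Correction for transcript length turned Ntrk2 to -0.0206 and Sort1 to -0.11. Leaving out the 2 libraries low in Xist turned Ngfr to -0.0563, Ret to 0.12, the Ngfr to Sort1 difference to -0.0721 and the correlation of Gfra1 and Ret to -0.25, and sample quality weights turned Ret to 0.0170. The cause was not tested. With single libraries left out, the log2 fold change ran from -0.0162 to 0.17 for Ngfr, from -0.0198 to 0.12 for Sort1, from 0.74 to 1.11 for Bdnf, from -1.13 to -0.48 for Ntf3 and from 0.14 to 0.34 for Ntrk2. A pseudocount of 10 moved Ntf3 to -0.43. The Ntf3 to Ntrk3 difference ran from -1.03 to -0.41, the Ngfr to Sort1 difference from -0.0619 to 0.0701 and the Gfra1 to Ret difference from -0.13 to 0.10. The correlation of Gfra1 and Ret ran from 0.40 to 0.96, and 0 to 1 pairs of members passed, the 1 being Gfra1 and Ret without wild-type library 2. The count over all genes, 12, was 7 with quantile normalization, 96 with sample quality weights, 27 with the length correction and 0 to 221 with single libraries left out. The value of 221 came without wild-type library 3, and the value of 0 came when library 2, 4 or 8 was dropped. Sample quality weights gave 1 further receptor past 0.05, Sorcs3. The filter of 50 gave no value for Ntf3. With the median coding transcript length, the wild-type levels per kilobase of Gfra1, Ntrk2 and Ntrk3 moved to 1558, 1253 and 331. No paired analysis was possible because the genotypes share no replicate numbers.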
